A study of Arabidopsis thaliana with 3 samples.

Results

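Near-end windows are transcript start windows that lie so far down a gene that less than 10% of its coding sequence remains downstream. They were taken from a profile of transcript 5′ ends in Arabidopsis thaliana seedlings, made by PEAT, a paired-end sequencing method for transcription start sites. The deposited table pairs the first start window of each transcript with a second window further down. A transcript can have up to 5 second windows, each in an entry of its own. A second window was a near-end window if the coding bases left, divided by the full coding length, came to under 0.1 and the table listed no domain of the type PPID downstream. The abbreviation is not explained in the labels or the file header. This rule was met by 679 of 14437 entries, and 21 further entries under 0.1 were left out for a PPID domain. With windows of the same gene and the same reads counted once, there were 538 near-end windows in 506 genes, of 11008 distinct second windows in 6814 genes.

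All libraries came from total RNA of whole wild-type Col-0 seedlings at 10 days of age. Seedlings for the first library stayed in white light. Those for the others received far-red-enriched light, which resembles canopy shade, for 45 min in one and for 90 min in the other. Values below follow the order white light, 45 min, 90 min. The wider study deals with a microprotein from the ATHB2 gene, but the libraries described here carry no mutation or transgene. Each condition has 1 library, so condition and library cannot be told apart, and every test below compares libraries.

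A transcript that starts inside a gene lacks the first part of the reading frame. Where a start lies just before the stop codon, almost nothing of the annotated protein can still be encoded, whatever the reading frame. PEAT records 5′ ends, and whether each marks a start of transcription was not tested. Shade lowers the ratio of red to far-red light, which phytochrome B senses, and auxin and brassinosteroids then drive elongation of the stem and petioles.

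Counted over 1 transcript per gene, the reads of the table numbered 3440656, 4373900 and 4125024. The near-end windows held 40775, 44756 and 52272 of the second-window reads, and the paired first windows 79103, 88900 and 86056. The median near-end window had 36, 25 and 37 reads. Of the 506 genes, 157 (31.0%) overlap another annotated gene in RefSeq, against 32.3% of all genes in the table. Reads of overlapping genes may be divided between them. Among 58 genes named by rule or picked for light, clock and hormone signalling, 19 overlap another gene, and their values are uncertain. They include BIN2, IMPA-1, DWF1, COI1, ABI1, PCL1, LIF2, PSD3, AT1G19000, BSL1 and ABCB4.

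Second windows were fewer towards both ends of the range of positions. The bin with under 5% of the coding sequence left held 160 second windows of any type, and the bin from 5% to 10% held 393. The fullest bin, from 30% to 35%, held 730. Near the start codon, the bins from 90% to 95% and from 95% to 100% held 352 and 294. The median near-end window left 102.5 coding bases (quartiles 59.25 and 152, range 2 to 514), which is 6.64% of the coding sequence. The median over all windows was 571.5 bases. The median coding length, which the rule uses, was 1630.5 bases, and windows just outside the rule were alike, with 1614 bases at 10% to 15% left and 1623 at 15% to 20%. Of the 538 windows, 53 left at most 30 bases, 139 at most 60, and 521 at most 300.

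**Figure D1:**
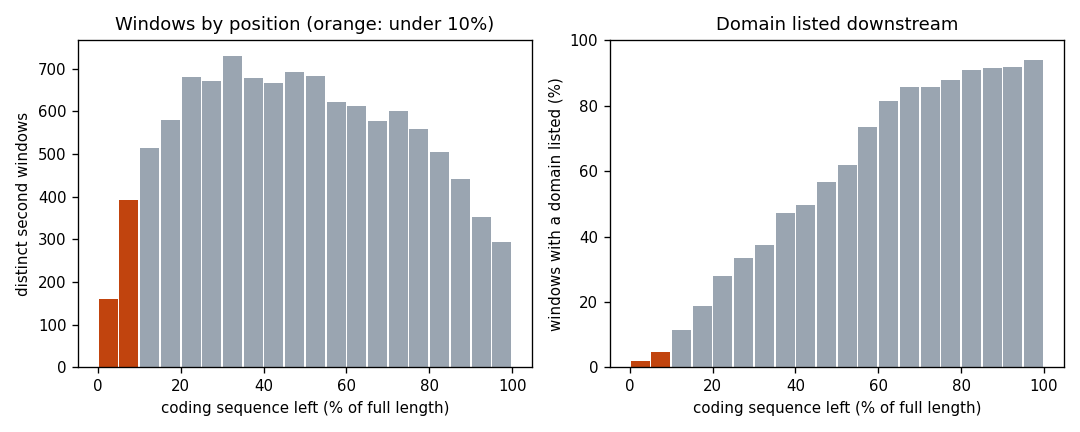
Left, distinct second windows per 5% bin of coding sequence left; right, the percentage of them with a Pfam domain listed downstream. The orange bins, under 10%, include windows with a PPID domain, which the near-end windows leave out. The left panel falls towards both ends, and the right panel towards the coding end.

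The bases left fell into all 3 codon phases. The length left was a multiple of 3 in 190 windows (35.3%, 95% Wilson interval 31.4% to 39.4%), left 1 base over in 191 (35.5%, 31.6% to 39.6%) and 2 bases over in 157 (29.2%, 25.5% to 33.2%). Over all other windows a multiple of 3 was left in 34.8%. By reads instead of windows, 33.6% of the near-end reads lay in windows with a multiple of 3 left. These positions are those of the gene model used. Of 163 near-end windows listed under several isoforms, the bases left differed between isoforms in 109 and the codon phase in 59, and 59 windows met the rule in only some of their entries.

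**Figure D2:**
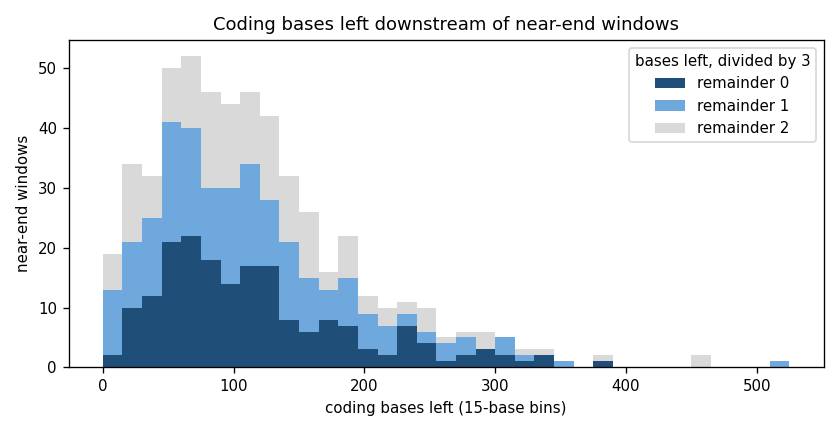
Number of near-end windows per 15-base bin of coding bases left, stacked by the remainder after division by 3. All 3 remainders occur along the range, and most windows leave under 152 bases.

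A domain was listed downstream of 7 near-end windows (1.30%). The rule fixes most of this figure, since it leaves out windows with a PPID domain and keeps only the end of the coding sequence. With PPID windows kept, a domain was listed for 1.88% of windows with under 5% left and 4.83% of those with 5% to 10% left, against 56.9% of all windows. RRS1 (AT5G45260), an immune receptor with a WRKY domain at its end, left 224 bases with that WRKY DNA-binding domain listed (overlap value 90, on a scale that the file does not define). Its near-end window had 19, 0 and 37 reads, beside 0, 54 and 3 in the first window. Of the reads in both windows, all in white light and most at 90 min lay in the near-end window. At 45 min all lay in the first window. The share was 92.5 points higher at 90 than at 45 min (Fisher's exact test, adjusted p = 1.22e-21). White light had too few window reads for the test.

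KT2/3 (AT4G22200), a potassium channel of the phloem, left 224 bases with a domain of unknown function listed (DUF3354, overlap value 95). Its near-end window had 23, 5 and 73 reads, a share of 14.9%, 4.24% and 44.0% of both windows. Against white light, Fisher's exact test called the fall of 10.7 points at 45 min (adjusted p = 0.00644) and the rise of 29.0 points at 90 min (adjusted p = 3.02e-08). HEN4 (AT5G64390), an RNA-binding protein of flower development, kept a KH domain (overlap value 61) with 47, 25 and 61 reads. The other windows with a domain belonged to the receptor kinase genes AT1G11330 and AT4G27300 (DUF3403, overlap value 100), AT3G10440 (shugoshin C terminus, overlap value 100) and AT2G30780 (a PPR repeat, overlap value 66). AT2G30780 had 4, 38 and 0 near-end reads and AT3G10440 0, 38 and 4, so both had most at 45 min. AT1G11330 had 19, 0 and 18, with none at 45 min, and AT4G27300 0, 11 and 32, with most at 90 min. The 4 genes thus had no common order of libraries.

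The windows closest to the stop codon left 2 to 4 bases. In AT1G19000, described as a MYB transcription factor, 3 bases were left, which is a single codon. If the coding lengths include the stop codon, that codon is the stop, and codon counts given below include it. This window had 589, 253 and 541 reads, beside 378, 563 and 480 in the first window. Its share was 60.9% (95% Wilson interval 57.8% to 63.9%), 31.0% (27.9% to 34.3%) and 53.0% (49.9% to 56.0%), so the 45 min library was the low one. The fall at 45 min was 29.9 points in size (Fisher's exact test, adjusted p = 3.46e-35).

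The pentatricopeptide gene AT5G09450 and the splicing factor gene AT3G51110 left 2 bases each. AT5G09450 had 38, 22 and 24 near-end reads beside 14, 22 and 122 first-window reads, and its share went from 73.1% to 50% and 16.4%. Both steps from white light were called by Fisher's exact test (adjusted p = 0.0450 and 8.07e-13). AT3G51110 had 0, 31 and 8 near-end reads, with 4 first-window reads in white light, too few to compare. AT3G07760, with no described function, left 4 bases and had 90, 17 and 39 near-end reads, a share of 68.2%, 10.6% and 18.9%. Another 3 windows left 4 bases, in AT1G26370, AT2G26600 and EDA30, and were singled out after their values were seen. AT1G26370 had 50, 0 and 0 near-end reads beside 2, 35 and 39 in the first window, a fall of 96.2 points at both times. AT2G26600 had 82, 4 and 37 near-end reads and EDA30 15, 0 and 17, so in all 3 genes the 45 min library had fewer than white light. CSLC6 (AT3G07330), a cellulose synthase-like enzyme, left 6 bases and GTL1 (AT1G33240), a trihelix transcription factor that limits cell growth, 14 bases. The share of CSLC6 was 34.5%, 33.3% and 19.6%, and that of GTL1 41.0%, 39.4% and 41.4%, of at least 1074 window reads in each library. No change in GTL1 passed the test.

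Just inside the limit lay AT4G33500, BSL1 and PSD, each with 9.98% of the coding sequence left. Just outside lay another listing of IMPA-1 (10.0063%), ATB' ALPHA (10.0134%) and AT3G16850 (10.0146%). IMPA-1 also has a near-end window with 157 bases left, so the limit separates entries of 1 gene.

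A near-end share is the percentage of the reads in both windows that lie in the near-end window. Other second windows of the same transcript do not enter it. Of the 538 near-end windows, 187 (34.8%) belonged to transcripts with 1 second window. Among windows with at least 20 reads in both together, the median share was 34.1% over 454 windows for white light, 27.5% over 485 for 45 min and 37.7% over 484 for 90 min. Over all windows the medians were 30.4%, 30% and 34.7%. The table itself holds only transcripts with at least 100 reads over the 3 libraries. Its second windows have at least 10 reads and at least 10% of the reads of their transcript, so low shares are missing from it. A window can pass these minimums through the reads of 1 library alone. The p-value of such a window does not allow for that selection. Near-end windows that held at least 50% of the window reads numbered 152, 113 and 168 (33.5%, 23.3% and 34.7%). At the same read minimum, the percentages over all windows were 29.3%, 26.4% and 32.4%.

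**Figure D3:**
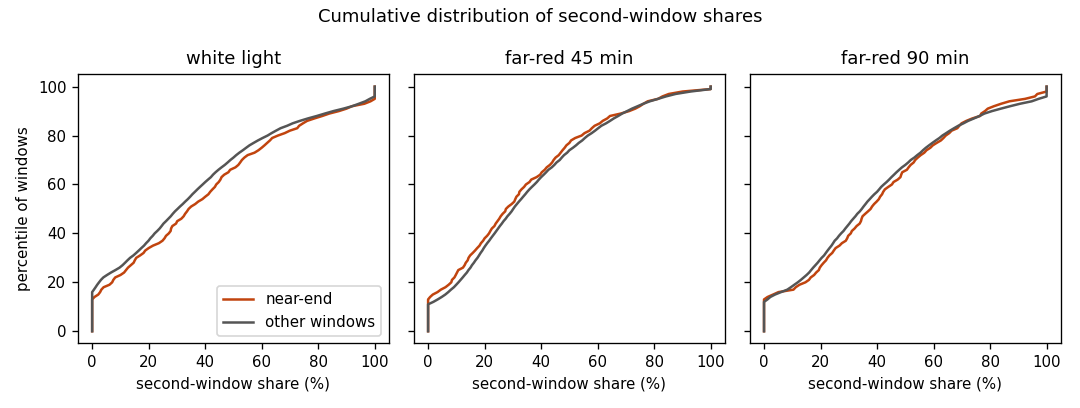
Cumulative distributions of the second-window share (%, x axis) of near-end windows (orange) and other windows (grey) with at least 20 window reads, 1 panel per library. The median near-end window lies at 34.1%, 27.5% and 37.7%.

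Many near-end windows were read in some libraries only. All 3 libraries had reads in 308 windows (57.2%), 2 libraries in 135 (25.1%) and 1 library in 95 (17.7%). Over all windows the shares were 58.7%, 25.7% and 15.6%. The 1720 single-library windows among all windows were read in white light (577), at 45 min (454) or at 90 min (689). Of the 95 single-library near-end windows, 43 were read in the white light library, 19 in the 45 min and 33 in the 90 min library. Their median was 29 reads and their maximum 91, in AT2G45460, which had 91 near-end reads at 90 min and 41 reads in the first window under white light, and no reads in either window at 45 min. In white light 121 near-end windows (22.5%) had 0 reads, at 45 min 103 (19.1%) and at 90 min 101 (18.8%). Over all windows 23.9%, 15.7% and 17.3% had 0 reads.

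The 6 windows with the most reads held 16.8% of all near-end reads. PRXR1 (AT4G21960), a secreted peroxidase, left 26 bases and had 1257, 2801 and 2303 near-end reads, beside 2515, 2917 and 4433 first-window reads. Its share was 33.3%, 49.0% and 34.2%, so the 45 min library stood above the others (15.7 points above white light, Fisher's exact test, adjusted p = 4.70e-50). YSL6 (AT3G27020), a metal transporter of the yellow stripe-like family, left 101 bases. It had 730, 1733 and 2230 near-end reads, and its share stayed between 78.2% and 80.8%. Reads of both its windows were more numerous in both far-red libraries, and no change in share passed the test.

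VHA-A (AT1G78900), the catalytic subunit of the vacuolar proton pump, left 148 bases, with 940, 1051 and 1261 near-end reads and shares of 55.5%, 54.6% and 68.9%. The 90 min library was 13.3 points above white light (Fisher's exact test, adjusted p = 1.65e-15). AT3G11930, described as a universal stress protein, left 60 bases and had shares of 36.8%, 28.2% and 46.9% from 1106, 749 and 998 near-end reads. TGA1 (AT5G65210), a bZIP factor of the defence response, left 77 bases in the isoform shown and 86 in another. Its near-end reads were 707, 733 and 948, and its shares of 73.4%, 70.1% and 78.8% differed by less than 10 points in each pair. In YSL6, VHA-A, TGA1 and BIN2, described below, the near-end window held most window reads in all 3 libraries.

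The comparison of far-red with white light asked which near-end windows gained or lost reads relative to the first window. Fisher's exact test (two-sided) was run on windows with 20 or more window reads in each library of a pair, and its p-values were adjusted by Benjamini and Hochberg's method over all windows so tested. A window was called where the adjusted p was below 0.05 and the share moved by 10 points or more. At 45 min, 283 of 412 near-end windows tested (68.7%) were called, against 68.1% of all windows. Of these, 133 were higher (32.3%, against 34.6% of all windows) and 150 lower (36.4%, against 33.5%). At 90 min, 300 of 409 (73.3%) were called, against 72% of all windows, 168 higher (41.1%, against 40.2%) and 132 lower (32.3%, against 31.7%). The near-end windows thus changed about as often as windows anywhere in the coding sequence.

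Between the far-red libraries, 260 of 450 near-end windows (57.8%) were called, against 59.9% of all windows. Of these, 171 were higher at 90 min (38.0%, against 34.6%) and 89 lower (19.8%, against 25.2%). The median change was 4.14 points for near-end and 1.97 points for all windows. Windows with few reads changed most. At 20 to 50 window reads the median size of change between white light and 45 min was 47.1 points in near-end windows and 41.0 points in all windows. At 500 or more reads it was 8.59 and 8.78 points. The part of read depth in these calls was not tested.

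**Figure D4:**
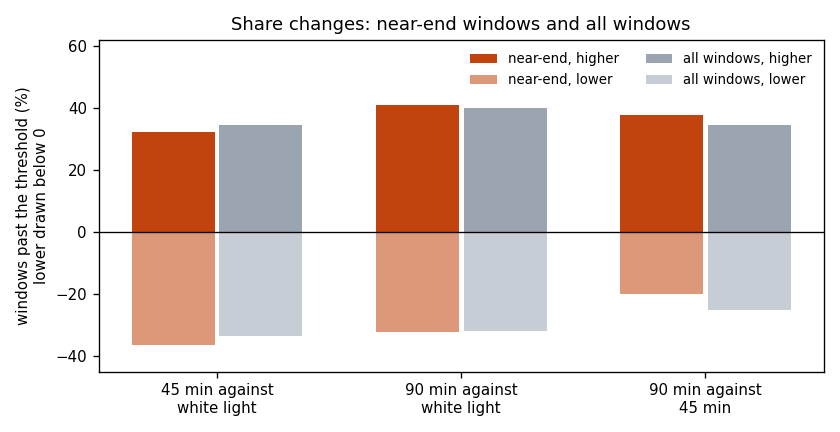
Percentage of tested windows called higher (above 0) or lower (below 0, paler) in the later library, for near-end windows (orange) and all windows (grey). The widest gap between orange and grey is in the windows lower at 90 than at 45 min, 19.8% against 25.2%.

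By the number of bases left, 31 of 38 windows with at most 30 bases (81.6%) were called at 90 min against white light. The counts were 51 of 64 (79.7%) above 30 and up to 60 bases, 138 of 204 (67.6%) above 60 and up to 150 bases, and 80 of 103 (77.7%) above 150 bases. The background for this pair is 72%, and the band above 60 and up to 150 bases lay below it while the other 3 lay above. These differences were not tested.

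Of 384 near-end windows tested at both times, 181 (47.1%) were called in the same direction at both, 89 higher and 92 lower. Over all windows 46.3% were. Both comparisons share the white light library. Among these, ranked by the change at 90 min against white light, the largest rises belonged to PEX6 (AT1G03000), a peroxisome biogenesis ATPase, APO1 (AT1G64810), a chloroplast protein, DCAF1 (AT4G31160), a substrate receptor of CUL4 ubiquitin ligases, and AT5G62030, described as a diphthamide biosynthesis protein. PEX6 had 0, 31 and 21 near-end reads and 86, 3 and 0 first-window reads. Its white light share of 0 allows up to 3.49%, and the 90 min share was 100% (Fisher's exact test, adjusted p = 9.40e-22). AT5G62030 had 2, 58 and 20 near-end reads against 49, 1 and 1 first-window reads. The window reads of both genes lay almost wholly in the first window in white light and almost wholly in the near-end window under far-red. Transcript reads of PEX6 numbered 201, 90 and 126, so most of them lay outside both windows in each library.

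By the same ranking, the largest falls belonged to IMPA-6 (AT1G02690), an importin alpha, MSI3 (AT4G35050), of a family of histone-binding WD proteins, SNL6 (AT1G10450), a SIN3-like corepressor, and RAPTOR2 (AT5G01770), a partner of the TOR kinase. IMPA-6 had 39, 0 and 0 near-end reads and 0, 24 and 89 first-window reads. MSI3 had 39, 0 and 0 against 0, 50 and 81. SNL6, with 25 bases left, had 42, 4 and 0 against 0, 108 and 69. RAPTOR2 had 34, 1 and 0 against 0, 23 and 90. All 4 had no first-window read in white light, where a count of 0 allows a first-window share of 7.14% to 8.82%. These counts are small, and the limits and intervals cover counting error only. Near-end reads of all 4 lay wholly or almost wholly in white light, so these windows passed the read minimums of the table through that library.

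Levels of the near-end windows themselves were compared as reads per 1000000 reads of the table (RPM), on the log2 scale after adding 1 RPM, which understates the change of weak windows. In whole seedlings, fewer cells of a type and less RNA per cell cannot be told apart. Among windows with at least 20 near-end reads in 1 of both libraries, 101 of 423 (23.9%) were at least 2-fold higher at 45 min than in white light, against 27.5% of all windows. Another 166 (39.2%) were at least 2-fold lower, against 33.6%. The median log2 ratio was -0.54 for near-end windows and -0.19 for all. At 90 min 170 of 481 (35.3%) were higher, against 35.3%, and 142 (29.5%) lower, against 27.8%.

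From 45 to 90 min, 148 of 419 (35.3%) were at least 2-fold higher, against 30.4% of all windows, and 46 (10.98%) lower, against 17.8%. The median log2 ratio was 0.58 for near-end windows and 0.29 for all windows. The 45 min library thus had the lowest levels in the median comparison with either other library. These are folds without a replicate check. Scaling by the median ratio of first-window reads instead of the table total would raise log2 ratios to white light by 0.13 at 45 min and 0.12 at 90 min before the 1 RPM is added, and by less in weak windows.

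The genes were grouped by words in the descriptions of the table, some of which carry names of rice genes. The composition was close to that of the table. Other enzymes made up 100 of the 538 windows (18.6%, against 20.3% of all windows), protein kinases and phosphatases 42 (7.81%, against 8.26%), transcription factors 37 (6.88%, against 6.97%) and transport and vesicle traffic 32 (5.95%, against 5.90%). Ubiquitin and proteasome genes had 20 windows (3.72%, against 3.79%), RNA-binding, helicase and splicing genes 17 (3.16%, against 2.67%), and cell wall and glycosyl enzymes 10 (1.86%, against 2.43%). Ribosome and translation genes had 5 (0.929%, against 2.37%), chaperones 6, and repeat proteins of the PPR and TPR kinds 9. The single window sorted with photosynthesis was that of GLU2 (AT2G41220), a ferredoxin-dependent glutamate synthase of nitrogen assimilation. The other 259 windows had another or no described function.

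GLU2 left 100 bases and had 2, 99 and 276 near-end reads, beside 284, 357 and 261 first-window reads. Its share was 0.699%, 21.7% and 51.4%, higher in each later library (90 min against white light, Fisher's exact test, adjusted p = 8.13e-61). The first window kept 261 to 357 reads while the near-end window went from almost none to more reads than the first. Ribosome and translation genes showed 3 higher and 0 lower of 4 tested at each time, against 34.6% higher and 33.5% lower of all windows at 45 min and 40.2% and 31.7% at 90 min. RPL5B (AT5G39740), a protein of the large ribosomal subunit, had 22, 75 and 165 near-end reads and shares of 6.09%, 30.6% and 40.0%. AT1G72550, a phenylalanyl-tRNA synthetase subunit, had shares of 19.9%, 54.6% and 34.4%.

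Cell wall and glycosyl enzymes had 0 windows higher and 7 of 9 lower at 90 min against white light, and 0 higher and 4 of 9 lower at 45 min. Of all windows, 40.2% were higher and 31.7% lower at 90 min, and 34.6% were higher and 33.5% lower at 45 min. The median share of the group was 45.8%, 18.6% and 16.8%. CSLC6, described above, was among them, while ATCSLA09 (AT5G03760), a mannan synthase with 179, 82 and 182 near-end reads, changed by less than 10 points. Ubiquitin and proteasome genes had 3 higher and 11 lower of 17 tested at 90 min, and TIR1, described below, was among the lower ones. The background at 90 min is 40.2% higher and 31.7% lower. The ring finger gene AT3G05545 had shares of 27.3%, 35.97% and 32.3%, and no change was called. The groups were set with earlier results known, and no test of a group was made.

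Protein kinases and phosphatases had 10 higher and 6 lower of 29 tested at 90 min, against 40.2% higher and 31.7% lower of all windows. The casein kinase gene ckl4 (AT4G28860) had 511, 422 and 547 near-end reads and shares of 85.3%, 73.4% and 83.3%. Transport genes had 14 higher and 9 lower of 28 at 90 min, read against the same 40.2% and 31.7%. IMPA-1 (AT3G06720), an importin alpha for nuclear import, had 441, 1038 and 606 near-end reads and shares of 21.6%, 43.3% and 28.8%, highest at 45 min. PSD3 (AT4G25970), which makes phosphatidylethanolamine, showed the same order with shares of 24.97%, 49.0% and 31.2% in its window with 101 bases left, and AT5G32440, with a CUE domain, had 20.9%, 31.6% and 23.9%. Of RNA-binding windows, 8 of 14 were higher at 90 min and 5 lower (all windows 40.2% and 31.7%), with LIF2 counted 3 times. LIF2 (AT4G00830) had 3 near-end windows that differ by a few reads between isoforms, and the one with 95 bases left had 170, 432 and 546 reads and shares of 7.15%, 16.7% and 19.4%.

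Chaperone genes had 4 higher and 1 lower of 5 at 90 min, against 40.2% higher and 31.7% lower of all windows. HSP91 (AT1G79930), of the Hsp70 superfamily, had 76, 172 and 126 near-end reads and shares of 24.8%, 50.4% and 44.8%, while ATERDJ2A (AT1G79940), a J-domain protein of the endoplasmic reticulum, had 237, 240 and 215 reads and shares of 45.14%, 35.9% and 28.2%. Repeat protein genes had 3 higher and 1 lower of 8 at 90 min (all windows 40.2% and 31.7%). ELF8 (AT2G06210), a Paf1 complex subunit, had shares of 39.1%, 48.0% and 45.9%, and EMB2753 (AT1G80410), the auxiliary subunit of an N-terminal acetyltransferase, 54.5%, 42.1% and 45.5%.

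Genes of light signalling, the clock and hormones were picked out of the near-end genes after their values were seen, because the treatment is one of shade. There were 19 such genes with 22 windows. At 90 min against white light 7 windows were called higher and 5 lower of 19 tested, against 40.2% higher and 31.7% lower of all windows. At 45 min 8 were higher and 7 lower of 20, against 34.6% and 33.5%. PAPP2C enters these counts with 2 windows of nearly the same reads and LHY with 3. Since genes were taken from the near-end windows alone, the counts say nothing of the rest of these pathways.

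**Figure D5:**
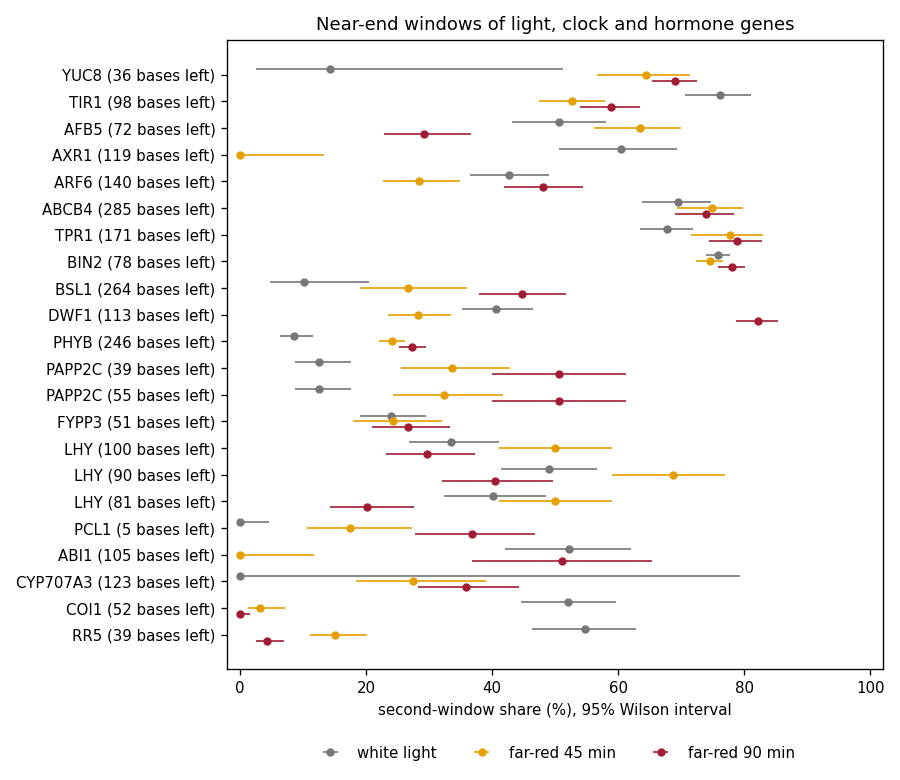
Near-end share (%, x axis) of 22 windows of light, clock and hormone genes in each library, with 95% Wilson intervals; libraries with no window reads are not drawn. PHYB lies lower in white light than under far-red, and COI1 and RR5 lie higher. YUC8 has 7 window reads in white light, too few to compare.

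Among auxin genes, YUC8 (AT4G28720), a flavin monooxygenase that makes auxin, was the 1 gene of a list of shade-responsive genes with a near-end window. It left 36 bases, which is 12 codons. The near-end window had 1, 103 and 433 reads, and the first window 6, 57 and 194. In RPM the near-end window stood at 0.291, 23.5 and 105, a ratio to white light of 81.0 at 45 min (95% counting interval 14.2 to 3231) and 361 at 90 min (64.5 to 14298). Both windows were thus far higher under far-red, and reads of the whole transcript were 3.28 and 9.60 times the white light level. In white light both windows together held 7 of 67 transcript reads, against 160 of 279 at 45 min and 627 of 771 at 90 min. The share was 64.4% at 45 min and 69.1% at 90 min, a difference of 4.68 points (Fisher's exact test, adjusted p = 0.319), and white light had too few reads to compare.

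TIR1 (AT3G62980), an auxin receptor, left 98 bases. It had 192, 182 and 237 near-end reads and 60, 163 and 166 first-window reads. Its share fell from 76.2% (95% Wilson interval 70.6% to 81.0%) to 52.8% (47.5% to 58.0%) and 58.8% (53.9% to 63.5%). The first-window reads were over 160 in both far-red libraries and 60 in white light, and the near-end reads lay between 182 and 237 in all 3. Fisher's exact test gave adjusted p = 1.37e-08 and 8.97e-06. AFB5 (AT5G49980), a related receptor, left 72 bases and had shares of 50.6%, 63.4% and 29.3%, called higher at 45 min and lower at 90 min. ARF6 (AT1G30330), an auxin response factor, left 140 bases with shares of 42.7%, 28.4% and 48.1%, lower at 45 min only. The receptors and this factor followed no common order of libraries.

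ABCB4 (AT2G47000), an auxin transporter, left 285 bases and had shares of 69.5%, 74.9% and 74.0%, with no change called. TPR1 (AT1G80490), a TOPLESS-related corepressor, left 171 bases and had shares of 67.8%, 77.7% and 78.9%, higher at 90 min (Fisher's exact test, adjusted p = 7.63e-04). AXR1 (AT1G05180), which activates the ubiquitin-like protein RUB, had 61, 0 and 0 near-end reads and 40, 25 and 0 first-window reads. At 45 min a count of 0 allows a share of up to 12.0%.

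Among brassinosteroid genes, BIN2 (AT4G18710), the kinase that holds the pathway off, had the third most reads of all near-end windows. The window left 78 bases in the isoform that met the rule and up to 141 in another. It had 1395, 1110 and 1105 near-end reads beside 443, 379 and 310 first-window reads, and its share of 75.9%, 74.5% and 78.1% had no change called. DWF1 (AT3G19820), a sterol reductase of brassinosteroid synthesis, left 113 bases and had 116, 89 and 431 near-end reads against 169, 226 and 93 in the first window. Its share fell from 40.7% to 28.3% at 45 min and rose to 82.3% at 90 min (Fisher's exact test against white light, adjusted p = 0.00228 and 1.96e-31). BSL1 (AT4G03080), a phosphatase of the pathway, left 264 bases and had 6, 27 and 89 reads, a share of 10.2%, 26.7% and 44.7%, called higher in each pair.

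Among light and clock genes, PHYB (AT2G18790), the main photoreceptor for shade, left 246 bases, which is 82 codons. Its near-end window had 39, 398 and 470 reads and its first window 411, 1256 and 1248. Both windows had more reads under far-red, and the share went from 8.67% (95% Wilson interval 6.40% to 11.6%) to 24.1% (22.1% to 26.2%) and 27.4% (25.3% to 29.5%). The rises of 15.4 and 18.7 points were called (Fisher's exact test, adjusted p = 1.18e-13 and 2.27e-18), and 90 min exceeded 45 min by 3.29 points, below the minimum. PAPP2C (AT1G22280), a phosphatase that binds phytochrome, left 39 bases and had 27, 37 and 41 near-end reads while the first window had 188, 73 and 40, so its share was 12.6%, 33.6% and 50.6%. FYPP3 (AT3G19980), another such phosphatase, left 51 bases and had shares of 23.9%, 24.3% and 26.7%, with no change called.

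LHY (AT1G01060), a morning factor of the clock, had 3 near-end windows, listed under different isoforms, with 100, 90 and 81 bases left. They overlap in reads and are not independent. The share was highest at 45 min in all of them, at 50%, 68.7% and 50%. In white light it was 33.5%, 49.1% and 40.1%, and at 90 min 29.7%, 40.5% and 20.1%. The rise from white light to 45 min was called with 100 and 90 bases left. With 81 bases left it was 9.85 points and not called (Fisher's exact test, adjusted p = 0.159). PCL1 (AT3G46640), an evening factor also called LUX, left 5 bases in the isoform that met the rule and 101 in another. It had 0, 14 and 35 near-end reads beside 78, 66 and 60 in the first window, so its share was 0 (up to 3.85%), 17.5% and 36.8%. Both rises were called (Fisher's exact test, adjusted p = 1.23e-04 and 1.02e-10).

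Among the genes of other hormones, COI1 (AT2G39940), the jasmonate receptor, left 52 bases and had 86, 5 and 0 near-end reads while the first window had 79, 154 and 232. Its share was 52.1%, 3.14% and 0, where a count of 0 allows up to 1.29% (90 min against white light, Fisher's exact test, adjusted p = 2.04e-39). RR5 (AT3G48100), a response regulator induced by cytokinin, left 39 bases and moved in the same way, with 75, 36 and 15 near-end reads and 62, 202 and 332 first-window reads. Its share was 54.7%, 15.1% and 4.32% (90 min against white light, Fisher's exact test, adjusted p = 3.41e-33). In both genes the near-end window lost reads as the first window gained them. White light held 86 of the 91 near-end reads of COI1 and 75 of the 126 of RR5. Both windows thus passed the 10% minimum of the table through that library, which the p-values do not allow for.

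ABI1 (AT4G26080), a phosphatase that restrains abscisic acid signalling, left 105 bases and had 48, 0 and 22 near-end reads, a share of 52.2%, 0 (up to 10.3%) and 51.2%. CYP707A3 (AT5G45340), which breaks down abscisic acid, had 0, 19 and 48 near-end reads and 1, 50 and 86 first-window reads, so all but 1 of its window reads came from the far-red libraries.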

How the data were processed

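The authors deposited raw counts per library for each transcript, its first window and a second window, with coding lengths and Pfam domains, per the file headers. The submitters' processing notes name cutadapt, HISAT2 2.0.5, SAMtools 0.1.19, bedtools 2.17.0 and the builds TAIR9 and TAIR10. Window width, duplicate removal and the choice of entries are not given in the sources used here. Windows of a gene with the same second-window reads were counted once, under the lowest isoform number that met the rule. Symbols came from RefSeq (TAIR10.1), which held all 506 genes. Fisher's exact tests (scipy 1.17.1) used counts as deposited. No edgeR-type test was possible with 1 library per condition. Shares carry 95% Wilson intervals, and limits for a count of 0 use 3 reads. Amplified reads that carry no molecular identifier do not count molecules, so both cover counting error only.

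Named genes were the 6 windows with most reads, 4 rises and 4 falls in share at 90 min among windows called the same way at both times, 4 fewest bases left, 4 with a domain and most reads, 3 nearest the limit, 2 per gene group, and shade-list members. The light, clock and hormone genes were picked after their values were seen, although YUC8, TIR1, BIN2 and BSL1 also met the rule. So were AT2G45460, the other windows with 4 bases left and the further domain genes. Members and lists were chosen with earlier results of these data known.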

Additional observations from a re-analysis of the deposited data

Results flagged for a closer look

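Fisher's exact test called a change in share from the 45 min to the 90 min library in 16 of the 44 windows named by rule. Some of the 44 were named for their change in share against white light. The rises were 92.5 points in RRS1, 68.7 in APO1, 39.7 in KT2/3, 29.7 in GLU2, 23.4 in AT4G27300, 21.98 in AT1G19000, 18.7 in AT3G11930, 18.0 in BSL1, 14.3 in VHA-A and 14.0 in HEN4. The changes in the other direction were -33.6 points in AT5G09450, -20.2 in AT1G72550, -17.8 in PSD3, -14.8 in PRXR1, -14.5 in IMPA-1 and -13.7 in CSLC6. Of all windows, 59.9% were called in this pair.

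Reads outside the listed windows entered no comparison of shares. They count in the table total behind RPM and in the transcript reads given for YUC8 and PEX6. In the genes with a near-end window their part of all transcript reads was 23.4% for white light, with a 95% Wilson interval from 23.2% to 23.6%. For 45 min it was 29.0% (28.8% to 29.2%), and for 90 min 26.5% (26.3% to 26.7%). Over all genes of the table it was lower, at 15.2%, 17.4% and 16.7%.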

How the results depend on the processing

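No paired analysis was possible because each condition has 1 library, and no replicate could be left out. With under 0.05 of the coding sequence left, which keeps fewer windows, 88, 86 and 78 windows were called at 45 min, at 90 min and between the far-red libraries, against 283, 300 and 260. These are 75.9%, 74.1% and 61.4% of the windows tested, against 68.1%, 72.0% and 59.9% of all windows. A minimum change of 20 points gave 172 between the far-red libraries (38.2%, against 42.2% of all windows), 58 of them lower against 89. Against all windows of the transcript, the median share was 24.7%, 20.8% and 26.9% in the order of the libraries, lower because the denominator also holds other second windows. The other alternatives kept each total of called windows within 1.5 times its value, and each median share within the Wilson interval of a window of median depth. They included a minimum of 50 reads, other ways to count isoforms, 1 window per gene, a pseudocount of 5, median-ratio scaling and, chosen after seeing the data, genes that overlap no other gene. Counts in 1 direction moved further, and under these settings they have no share over all windows beside them. Windows with a lower share at 90 min than in white light went from 132 to 84 with a minimum of 50 reads. With no filter on low counts, windows at least 2-fold lower at 90 than at 45 min went from 46 to 80, and those at least 2-fold higher at 45 min than in white light from 101 to 153. Depth limits the windows with few reads most, and 126 near-end windows were too shallow to test at 45 min.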
